A study of Nothobranchius furzeri with 10 samples.

Results

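The most abundant transcripts of the brain were examined in the turquoise killifish, Nothobranchius furzeri, an annual fish with a very short life span. A gene belonged to this set when its mean level over the libraries was at least 1000 CPM (the count divided by the total count of the library and multiplied by 1000000). The rule took in 51 of the 26739 genes listed. The members were thus chosen by their measured mean level, so their levels are given as a description and without a test. The 10 libraries were made from brain RNA of males of the GRZ strain aged 10 weeks. Every library carries the label swim-tunnel, a device in which fish swim against a current, and an untreated group was not analysed here. Libraries are numbered 1 to 10 in accession order, which corresponds to the label numbers JG74 to JG78 for libraries 1 to 5 and JG80 to JG84 for libraries 6 to 10. Nothing in the labels says whether the libraries came from separate fish, so the spread between them may be partly technical.

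In vertebrate brains the most abundant messenger RNAs are known to include those of the cytoskeleton, of protein synthesis, of energy metabolism, of calcium signalling and of myelin. Some of these classes are made by all cells, while others mark neurons or glia. Many ribosomal protein messenger RNAs are short, and many messenger RNAs of neuronal scaffold and cytoskeletal proteins are long. The files do not pair their gene identifiers with names, and 0 of the 26739 identifiers matched the RefSeq gene table of the species. The members are therefore named by identifier only, and neither their roles nor the brain origin of the RNA could be checked against markers.

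The 51 genes took a similar part of each library, between 8.92% and 9.84% of its counts. Together they held 9.26% ± 0.287 of the counts (SD, n = 10), although they made up 0.191% of the genes listed. Library 9 had the highest share at 9.84% (95% Wilson interval 9.83% to 9.85%), and library 1 had the lowest at 8.92% (8.91% to 8.94%). The highest share was 1.10 times the lowest. Libraries 2 and 7 followed library 9 with 9.53% and 9.48%, and the other 6 libraries lay between 8.96% and 9.28%. The libraries held between 22958779 and 28223263 counts, and the fewest counts for any member in any library were 20539. Intervals at this depth were at most 0.0240 percentage points wide and cover counting error only, so the range of the share was far wider than counting error.

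**Figure D1:**
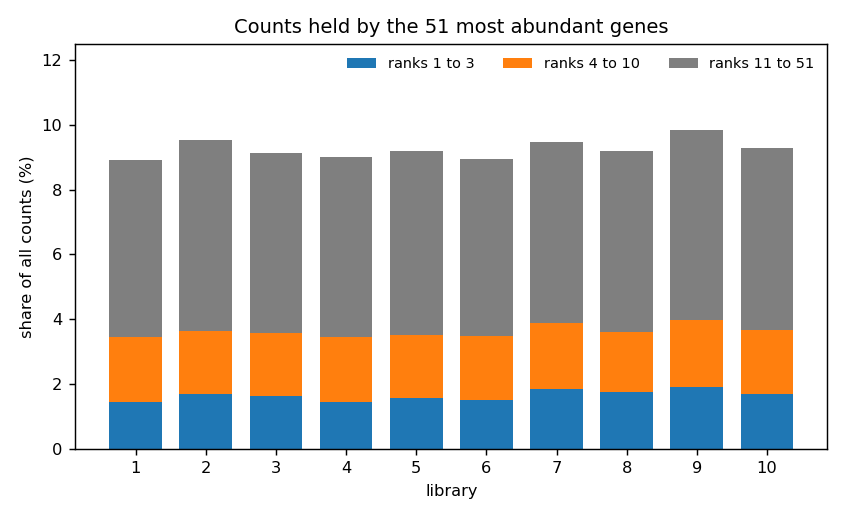
Share of all counts (%) held by the 51 most abundant genes in each of the 10 libraries, stacked by rank in mean CPM. Bars reach between 8.92% in library 1 and 9.84% in library 9.

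The levels were uneven, with a few genes far above the rest. Of the 51 genes, 12 averaged at least 2000 CPM, 10 lay between 1500 and 2000 CPM and 29 lay below 1500 CPM. The median of the mean levels was 1396 CPM. The first 3 genes held 17.9% of the members' counts, and the first 10 held 39.1% ± 0.925 (SD, n = 10).

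Nfu_g_1_019825 was the most abundant gene in every library. Its level ran from 5653 CPM in library 4 through a median of 6535 CPM to 8137 CPM in library 7, with a mean of 6686 ± 710 CPM (SD, n = 10). After library 7, the levels were highest in library 1 at 7274 CPM and library 9 at 7200 CPM. The gene took 7.22% of the members' counts.

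The genes at ranks 2 and 3, Nfu_g_1_005244 and Nfu_g_1_020367, lay close together and shared their lowest and highest library. Nfu_g_1_005244 ran from 3641 CPM in library 1 through a median of 5133 CPM to 6100 CPM in library 9, with a mean of 5046 ± 697 CPM (SD, n = 10). Nfu_g_1_020367 ran from 3656 CPM in library 1 through a median of 4683 CPM to 5872 CPM in library 9, with a mean of 4803 ± 635 CPM (SD, n = 10). In both genes library 1 stood below the other 9 libraries. Nfu_g_1_005244 was the higher of the pair in 8 of 10 libraries. Their mean difference of 244 CPM was smaller than its SD of 428 CPM over single libraries, and whether the means differ was not tested.

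Ranks 4 and 5 were held by Nfu_g_1_004531 and Nfu_g_1_008211. Nfu_g_1_004531 ran from 3348 CPM in library 4 through a median of 3456 CPM to 4198 CPM in library 6 (mean 3607 ± 308 CPM, SD, n = 10). Libraries 6 and 9 stood at the top for this gene, with 4036 CPM in library 9. Nfu_g_1_008211 ran from 2699 CPM in library 5 through a median of 3153 CPM to 3378 CPM in library 1 (mean 3125 ± 214 CPM, SD, n = 10). Nfu_g_1_004531 was the higher of these in 9 of 10 libraries.

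**Figure D2:**
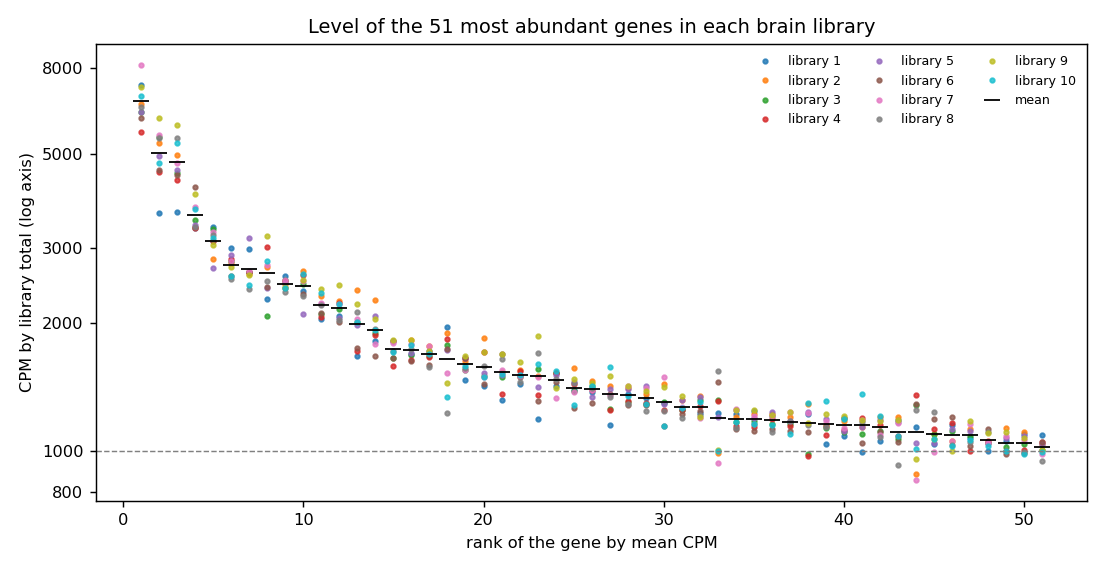
CPM by library total (log axis) of the 51 members against their rank in mean CPM. Each point is 1 of the 10 libraries, black bars are means, and the dashed line is the threshold of 1000 CPM. Rank 1 is the highest gene in each library, although its lowest level (5653 CPM) lies below the highest level of rank 2 (6100 CPM), and neighbouring ranks overlap over most of the range.

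The first ranks moved over fewer places from library to library than the later ones. Of the 50 pairs of genes with neighbouring ranks, 2 were in the same order in all 10 libraries, namely ranks 1 and 2 and ranks 3 and 4. A further 3 pairs kept their order in 9 libraries and 5 pairs in 8. In 43 of the 50 pairs the mean difference was smaller than the SD of the difference over libraries. That SD describes single libraries, and whether the means differ was not tested. Within the set, the first 10 genes moved over a median span of 2.5 ranks between libraries, against 10 ranks for the last 31 genes. A small span of ranks is not a small spread. Mean CPM and the coefficient of variation (SD over mean) of the 51 genes had r = 0.345 and rho = 0.262 on log2 values. Inside the set the more abundant members thus tended weakly to vary more, which was not tested, although the 2 most variable members were at ranks 33 and 44. Between classes of genes the direction was the reverse. The median coefficient of variation was 6.23% in the members, 8.15% in genes of 100 to 1000 CPM and 12.8% in all genes tested. The widest span was 28 ranks, from rank 22 to rank 50, in Nfu_g_1_015101. Across the 51 genes, the order in a library and the order by the mean of the other 9 libraries had a Spearman rho between 0.930 in library 6 and 0.986 in library 5. This correlation is across genes, which are not independent replicates, and it covers only the range of levels that the rule left.

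The threshold fell in a dense part of the distribution, and 19 members averaged less than 1200 CPM. The 3 members just inside it were Nfu_g_1_007808 at 1045 ± 51.8 CPM, Nfu_g_1_011513 at 1043 ± 48.0 CPM and Nfu_g_1_001335 at 1019 ± 41.2 CPM (SD, n = 10 each). The 3 genes just outside were Nfu_g_1_007296 at 989.6 ± 51.0 CPM, Nfu_g_1_004329 at 974 ± 93.1 CPM and Nfu_g_1_004688 at 973 ± 156 CPM (SD, n = 10 each). Those inside reached 1000 CPM in 7 libraries each, and those outside in 3, 5 and 6 libraries. Of the 51 members, 40 were at or above 1000 CPM in every library and 11 fell below it in at least 1. A single library held between 47 and 55 genes of at least 1000 CPM, of which 47 to 51 were members.

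Lengths differed widely among the members, and the order by level per kilobase was a different one. Gene lengths were recovered from the deposited counts and RPKM and ran from 627 bp to 26901 bp in the 51 genes, with a median of 2968 bp. The median was 2834 bp over the 17140 tested genes with a length and 4989.5 bp over the genes of 100 to 1000 CPM. Among the members, 8 genes (15.7%) were shorter than 1000 bp and 19 (37.3%) longer than 5000 bp, against 16.0% and 24.1% over all tested genes. In the genes of 100 to 1000 CPM these shares were 7.42% and 49.7%, so long genes were more frequent in the members than over all tested genes and less frequent than in that class. Across the 51 genes the mean CPM and the length had r = -0.00999 and rho = -0.0316 on log2 values. A length counts all bases the authors assigned to a gene, and it may hold more than 1 transcript form.

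Per kilobase, levels among the members differed far more than in CPM. The rule set a floor on CPM and no bound on length, and mean CPM was nearly unrelated to length. The wider range per kilobase therefore follows largely from the lengths. The level is given as reads per kilobase per 1000000 counts (RPKM) computed with each library's own total. It ran from 40.7 to 3178 RPKM, a ratio of 78, against a ratio of 6.56 between the highest and lowest mean CPM. The highest level per kilobase was that of Nfu_g_1_005244 (1588 bp) with 3178 ± 439 RPKM, followed by Nfu_g_1_019825 (2314 bp) with 2889 ± 307 RPKM and Nfu_g_1_014314 (783 bp) with 2547 ± 296 RPKM (SD, n = 10 each). These were also the 3 highest of all genes with a length. The first 2 differed by less than the SD of either. Nfu_g_1_020367, at rank 3 in CPM, was in place 58 over all genes per kilobase, with 942 ± 125 RPKM and a length of 5098 bp. Of the 51 genes of highest level per kilobase, 13 (25.5% of either list) were members. Those 13 members had a median length of 881 bp, and the other 38 members one of 5029 bp. Division by length places short members higher, so this difference follows from the measure and is not a separate result.

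**Figure D3:**
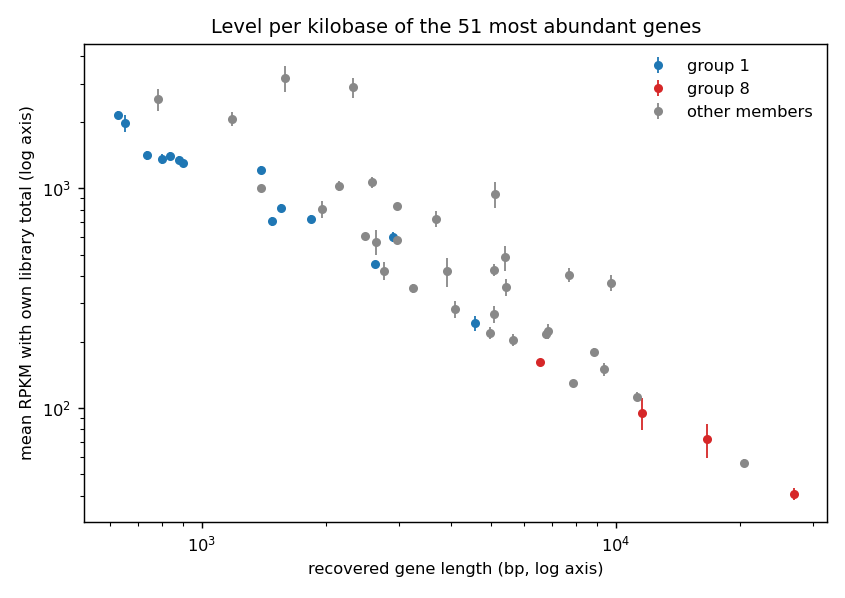
Mean RPKM computed with each library's own total against gene length (bp), both on log axes, for the 51 members, with SD over 10 libraries as bars. Genes of groups 1 and 8, 2 of the sets that varied together, are coloured. Levels run from 40.7 to 3178 RPKM, and the band of points follows from the threshold on CPM.

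Most of the 51 genes were steady between libraries. Their coefficient of variation (SD over mean, on CPM scaled by TMM, a correction of library totals for composition) had a median of 6.23%, against 8.15% in the 2362 genes of 100 to 1000 CPM and 12.8% in all 17951 genes tested. Counting error alone would give a median of 0.532% in the members, 1.55% in the genes of 100 to 1000 CPM and 4.33% in all genes tested. Of the 51 genes, 17 had a coefficient of variation under 5%, 25 between 5% and 10%, and 9 of at least 10%. The highest library was more than 1.5 times the lowest in 6 members (11.8%), against 21.6% of the genes of 100 to 1000 CPM and 48.5% of all genes tested.

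None of the 51 genes passed a test of variability across libraries. The test set each gene's deviance in an edgeR fit against the dispersion trend, with Benjamini-Hochberg adjustment over 17951 genes at 0.05. It called 1213 genes, 6.76% of those tested, and 0 of 51 members. Among the genes of 100 to 1000 CPM it called 131 of 2362 (5.55%). At an unadjusted p under 0.05 it was again 0 of 51 members, against 8.13% of the genes of 100 to 1000 CPM and 9.28% of all genes tested. DESeq2 marked 0 members as dispersion outliers, against 365 of the 17951 genes tested (2.03%), so the 0 lies near that share. The biological coefficient of variation (BCV) is edgeR's estimate of the spread beyond counting error, here drawn toward the trend. It is thus not a gene's own spread. Its median was 0.0878 in the members, where the trend lay at 0.152, and 3 of 51 members were above the trend. In the genes of 100 to 1000 CPM the median was 0.0994 with the trend at 0.152, and 404 of 2362 genes were above it. Over all genes tested the median was 0.152 with the trend at 0.226, and 2873 of 17951 were above it. Lying below the trend was thus not particular to the members. With a lower trend, through the running median of the genes' own dispersions, 8 of 51 members passed, against 23.4% of the genes tested. The 0 therefore depends on where the trend lies.

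**Figure D4:**
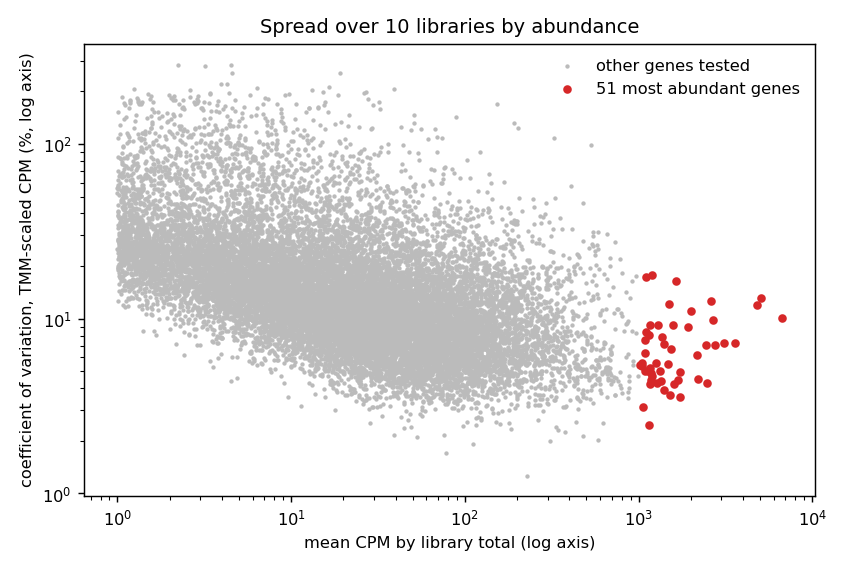
Coefficient of variation of TMM-scaled CPM over 10 libraries (%) against mean CPM, both on log axes. Red points are the 51 members and grey points the other tested genes. The members lie between 2.46% and 17.9%.

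The 2 most variable members were also the ones most alike among the 4 most variable. Nfu_g_1_015101 (16634 bp) ran from 938 CPM in library 7 through a median of 1215 CPM to 1540 CPM in library 8 and had a coefficient of variation of 17.9%. Nfu_g_1_022061 (11601 bp) ran from 853 CPM in library 7 through a median of 1091 CPM to 1352 CPM in library 4, with 17.4%. Both genes were low in libraries 2, 7, 9 and 10, where their levels lay between 853 and 1007 CPM. In the other 6 libraries their levels lay between 1043 and 1540 CPM. Their log2 CPM had r = 0.917 and rho = 0.842 over the 10 libraries. This pair was looked at because of its spread, so the value is a description. Their edgeR BCV was 0.175 and 0.170 where the trend was 0.152, with adjusted p = 1 for each. Under the running-median trend the adjusted p was 2.35e-08 and 1.09e-07. That trend is a median over genes and called 23.4% of the genes tested, so these values are no sign of exceptional spread.

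Nfu_g_1_015310 came next with a coefficient of variation of 16.4%. It ran from 1227 CPM in library 8 through a median of 1734 CPM to 1955 CPM in library 1. Libraries 7 to 10 held its 4 lowest levels, between 1227 and 1525 CPM, and the other 6 libraries lay between 1731 and 1955 CPM. The fourth was Nfu_g_1_005244, described above, with 13.2%.

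At the other end, Nfu_g_1_015567 had the lowest coefficient of variation on the TMM scale, 2.46%, and one of the longest genes, at 20460 bp. It ran from 1081 CPM in library 1 through a median of 1154 CPM to 1208 CPM in library 9. Nfu_g_1_010336 (6552 bp) followed with 3.11% and ran from 999 CPM in library 1 through a median of 1045 CPM to 1124 CPM in library 6. On CPM by library total, without TMM, their coefficients of variation were 3.96% and 3.75%, in places 10 and 6 among the members. Nfu_g_1_017407, chosen here after its values were seen, was lowest on that scale with 2.58%, so the order of the steadiest genes depends on the scaling. No member had 1 library standing apart from the other 9 by Dixon's ratio on log2 CPM, against 5.67% of all genes tested.

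The movement of the summed share was unevenly spread over the genes. The variance of the members' share over libraries can be divided among genes by their covariance with it. Nfu_g_1_005244 accounted for 19.6% of it and Nfu_g_1_020367 for 17.1%. With Nfu_g_1_019825, the 3 genes of highest mean level accounted for 49.0% and the other 48 for 51.0%, in which 12 genes counted against the sum. On CPM by library total, library 9 was the highest library for 17 members and library 2 for 11. Library 1 was the lowest for 15 and libraries 6 and 8 for 10 each. Library 3 was the highest for 0 members. These counts depend on the scaling. The TMM factors, 0.979 in library 1 and 1.02 in library 9, raise the levels of library 1 and lower those of library 9. Nfu_g_1_010272, for example, was highest in library 9 by library total and in library 2 on TMM-scaled CPM.

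The members did not vary as a single block. Over the 1275 pairs of members the median correlation of log2 CPM over the 10 libraries was 0.189 (Pearson) and 0.176 (Spearman), with quartiles of r at -0.159 and 0.510. In pairs of genes of 100 to 1000 CPM the median r was 0.0554. An r above 0.8 was found in 79 member pairs (6.20%), against 5.15% of the pairs of less abundant genes. An r below -0.8 was found in 2 member pairs (0.157%), against 2.96%. The first principal component of the members held 37.0% of their variance, close to the 36.6% in genes of 100 to 1000 CPM. All pairs share the same libraries and scaling, and no p-value was computed for them.

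Average linkage on these correlations sorted 47 of the 51 genes into 8 groups, each with 3 genes or more. The groups were formed from the values described here, so they carry no test. Groups 1, 2 and 8 changed least under 4 other settings of scaling and linkage. The same 14 genes of group 1 came out under each of the 4. The same 6 genes of group 2 came out under 3 of the 4, and 5 of them when the tree was separated at r = 0.7. Of the 4 genes of group 8, 3 or 4 stayed together. For the other 5 groups the overlap (shared genes over all genes of both groups) fell to between 0 and 0.5 under at least 1 of the 4 settings. By the lowest overlap, leaving out 1 library at a time changed the groups more, except for groups 5 and 7. Those 2 groups had an overlap of 0 when the tree was separated at r = 0.7, against a lowest overlap of 0.0909 and 0.2 without 1 library. The overlap was then at least 0.667 for group 1 and at least 0.6 for group 8. That of group 2 fell to 0.3 without library 6, 0.286 without library 7 and 0.3 without library 9, and the lowest overlaps of the other 5 groups lay between 0.0909 and 0.333.

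Group 1 held the shortest genes and moved little. Its 14 members had a mean pairwise r of 0.816, a median length of 1145 bp and a median coefficient of variation of 4.92%. It contained 7 of the 8 members shorter than 1000 bp. Together these genes took 1.77% ± 0.0759 of the counts (SD, n = 10). The share was lowest in libraries 6, 8 and 4, at 1.67%, 1.68% and 1.71%, and highest in libraries 9, 7 and 2, at 1.86%, 1.85% and 1.85%. On TMM-scaled CPM the median member was lowest in libraries 6, 8 and 10, at 0.918, 0.928 and 0.941 times its own median, and highest in library 5, at 1.04 times.

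Group 2 held 6 genes, among them Nfu_g_1_015310 and Nfu_g_1_001335, with a mean pairwise r of 0.783. They took 1.17% ± 0.0691 of the counts (SD, n = 10). Library 1 was the highest at 1.28% and library 8 the lowest at 1.05%. The 5 highest shares were those of libraries 1 to 5, between 1.19% and 1.28%, and the 5 lowest those of libraries 6 to 10, between 1.05% and 1.16%. No difference between them is given in the labels. The TMM factors also lay between 0.971 and 0.999 in libraries 1 to 5 and between 1.01 and 1.02 in libraries 6 to 10, and their part in other patterns on the TMM scale was not tested.

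Group 8 held 4 long genes that included Nfu_g_1_015101 and Nfu_g_1_022061, with a median length of 14118 bp and a mean pairwise r of 0.736. They took 0.446% ± 0.0460 of the counts (SD, n = 10). The share was lowest in library 7 at 0.383%, followed by libraries 2, 10 and 9 at 0.401%, 0.410% and 0.413%. It was highest in libraries 8 and 6, at 0.513% and 0.506%. The 4 genes did not share this pattern evenly. The coefficient of variation was 17.9% in Nfu_g_1_015101 and 17.4% in Nfu_g_1_022061, against 6.38% in Nfu_g_1_012338 and 3.11% in Nfu_g_1_010336. On TMM-scaled CPM, Nfu_g_1_012338 was above its own median in library 2 and Nfu_g_1_010336 in library 9. Of the 5 members longer than 10000 bp, 3 were in this group. The mean profiles of groups 1 and 8 had r = -0.534 over the 10 libraries, a value given as a description. Of the 28 pairs of groups, 3 had a lower r, namely groups 2 and 4 with -0.723, groups 6 and 8 with -0.574 and groups 2 and 6 with -0.551.

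**Figure D5:**
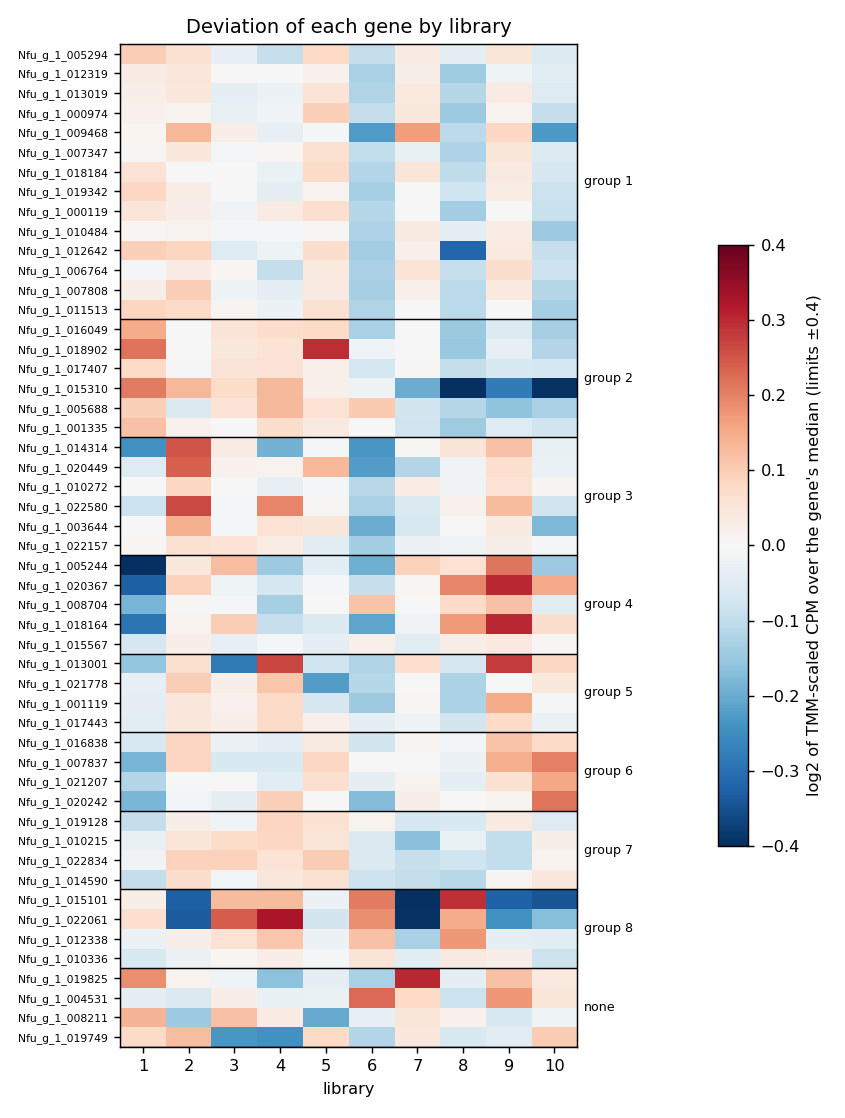
Log2 of TMM-scaled CPM over each gene's own median, for the 51 members (rows) in the 10 libraries (columns), with colour limits at ±0.4 and rows ordered by group and rank. By the median of its genes, group 8 is low in libraries 2, 7, 9 and 10, and group 1 is lowest in libraries 6, 8 and 10 on this scale. Within group 8, Nfu_g_1_012338 lies above its own median in library 2 and Nfu_g_1_010336 in library 9.

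Length went along with some of the variation within the set. Across the 51 genes, the score on the first component had r = -0.417 and rho = -0.362 with log2 length. The sign of the component was set to go with the mean profile of group 1. It was highest in library 9 and lowest in library 6. The long genes Nfu_g_1_015101 and Nfu_g_1_022061 had the lowest scores, -0.660 and -0.657. Other members longer than 10000 bp scored closer to the middle, with 0.0390 in Nfu_g_1_015567, -0.0478 in Nfu_g_1_022834 and -0.154 in Nfu_g_1_012338. The slope of the members' deviations on log2 length ran from -0.0446 per doubling in library 7 to 0.0492 in library 6. Among the other tested genes, the slope was -0.0289 in library 7 and 0.00502 in library 6. It was lowest there in library 9 at -0.0308 and highest in library 4 at 0.0296, where the members had -0.0252 and 0.0276. In 4 of the 10 libraries the slopes of members and other genes had opposite signs. The members had -0.00627 and the other genes 0.0199 in library 1, and -0.00631 and 0.00798 in library 5. In library 8 the members had 0.0267 and the other genes -0.00228, and in library 10 the members had 0.00485 and the other genes -0.0228. The part of library preparation or RNA quality in these slopes was not tested.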

How the data were processed

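Total RNA of 10 brain libraries went through Illumina's TruSeq v2 library kit, per the labels' protocols. Tools in the submitters' processing notes are featureCounts 1.4.6-p4, STAR 2.4.1d and bcl2fastq 1.8.4. Build, annotation and strand use are not given in the sources, and counts of genes that overlap or have near-identical copies are uncertain for that reason. The authors deposited raw counts per gene and RPKM, and 0 columns and 0 rows were left out. The deposited RPKM were divided by the library totals taken in rotation from cell to cell, so most used the total of another library. They therefore served only to recover lengths. These lengths then differed between libraries by at most 0.000743% (coefficient of variation) in the members, and by a median of 11.5% with own totals.

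Levels are CPM by library total. Spread and co-variation use TMM over genes of at least 1 CPM, and log2 CPM with a prior count of 2. The variability test compares the deviance of an edgeR 4.0.16 intercept fit (R 4.3.3) with chi-square on 9 degrees of freedom at the trended dispersion. It was run on simulated counts in which genes lay on the fitted trend, apart from some given a higher dispersion. The members' median BCV lay below that trend, so the simulation does not show how readily such genes would be called. DESeq2 1.42.0 gave size factors and dispersion outliers. Groups were separated at r = 0.5. Python 3.11.15, numpy 2.4.6, pandas 2.3.3 and scipy 1.17.1 were used. No gene list by function could be evaluated, since no identifier matched the 38438 RefSeq genes (assembly NfurGRZ-RIMD1). Named were the 5 members highest in CPM, 3 on each side of the threshold, the 3 highest per kilobase, the 4 most and 2 least variable, and the 2 with the largest part in the summed share. Members, lists and settings were chosen with earlier results of these data known.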

Additional observations from a re-analysis of the deposited data

How the results depend on the processing

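The set had 51 genes with DESeq2 size factors, 52 by median CPM and 40 when 1000 CPM was required in every library. Between 51 and 52 genes were chosen without each library in turn. The summed share lay between 9.19% and 9.29% without each library in turn. The count of members past the variability test was 0 with every scaling and filter tried and without each library in turn. It was 8 with the running-median trend, which called 23.4% of the genes tested. DESeq2 marked 0 members as dispersion outliers, against 2.03% of the genes tested. The median coefficient of variation lay between 5.51% (without library 5) and 6.10% without each library in turn, and at 6.11% to 6.21% with other scaling. The median pairwise r lay between 0.119 and 0.225 without each library in turn, and the share of the first component between 32.5% and 43.0%, with 42.6% by library total alone. The 8 groups became 5 without library 1 and 5 without library 6, with 5 to 8 over all such omissions. Other settings gave 6 to 8. The cause was not tested. All 168 recomputed mean levels of named members stayed within 1 SD. Omitting 1 of 10 libraries cannot move a mean by 1 SD, so for those settings the outcome was fixed in advance. Under the running-median trend, 6 named members passed the variability test. No paired analysis was possible because there is a single group. TMM scaling of the mean levels, and the count of genes reaching the threshold in any library, were added after the data were seen. Depth limits none of these values, since each member had at least 20539 counts in each library.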

Other observations

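The set would hold 65 genes if 1000 CPM in any 1 library were enough, and all 51 members are among them. The pair of members most alike over the libraries was Nfu_g_1_016049 and Nfu_g_1_017407, both of group 2, with r = 0.966 and rho = 0.939 (n = 10). The pair most opposed was Nfu_g_1_020367 and Nfu_g_1_005688, with r = -0.846 and rho = -0.915 (n = 10). Both pairs were picked as extremes of 1275, so the values carry no test. Outside the set, 1029 of 17900 tested genes (5.75%) had r above 0.8 with the mean profile of group 8, 686 (3.83%) with that of group 2 and 139 (0.777%) with that of group 1.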
